A study of Mus musculus with 7 samples.

Results

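The genes described here are the nuclear genes for the subunits of respiratory complexes II to V, measured by RNA-seq in the prefrontal cortex (PFC) of mice. They were taken from the deposited gene table by symbol and gene type: protein-coding rows for the 4 succinate dehydrogenase genes (Sdha to Sdhd), the Uqcr genes with Cyc1, the Cox4 to Cox8 genes and the Atp5 genes. This gave 50 of the 55416 genes in the table, of which 21885 are protein-coding. Complex II has 4 of them, complex III 9, complex IV 19 and complex V 18. A further 11 rows whose symbols match are typed as pseudogenes or other classes and were left out, whereas Cox5b-ps, a pseudogene by its name, is typed protein-coding and was kept.

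The question was whether these genes differ between PFC tissue that received the 2 alleles of the human long non-coding RNA PAXIP1-AS1. Female wild-type C57BL/6 mice were injected in both hemispheres of the PFC with a recombinant AAV whose human synapsin promoter limits expression to neurons and which also carries an EGFP reporter. Ctr mice (3 libraries) received the empty virus, Ref mice (2 libraries) the C allele and Alt mice (2 libraries) the G allele of a single-nucleotide variant in PAXIP1-AS1. The study states that mice have no sequence homologous to PAXIP1-AS1, so both alleles were added to animals that lack the gene. For the animals used for RNA-seq no age is given, nor is it stated whether a library is from 1 mouse or from several, so that p-values measure only the spread between these libraries. The transgene is driven in neurons while the RNA is from whole tissue.

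Complexes II to V form the part of the mitochondrial respiratory chain that follows complex I. Complex II passes electrons from succinate to ubiquinone, complex III from ubiquinone to cytochrome c and complex IV from cytochrome c to oxygen, and complex V (ATP synthase) uses the proton gradient that complexes I, III and IV build to make ATP. Complex II is encoded by nuclear genes alone. Mitochondrial DNA encodes cytochrome b of complex III, the catalytic core of complex IV and a part of the proton channel of complex V. These 3 complexes thus need both genomes. Neurons depend on oxidative phosphorylation for most of their ATP, which they spend on ion pumping and synaptic transmission.

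Libraries held 16655697 to 20750857 counts. Counts on these 50 genes made up 0.341% to 0.427% of each Ctr and Ref library, 0.293% of Alt replicate 2 and 0.18% of Alt replicate 1, the shallowest library. Replicates of each group differed beyond counting noise. The chi-square over genes, divided by its degrees of freedom, was 18.59 to 25.04 for pairs of Ctr or Ref replicates and 58.05 for the 2 Alt replicates. Neuronal markers were present in every library, with a summed TPM of 2777 to 3375. The fixed list of 8 neuronal markers had, for Alt against Ctr, 1 gene higher and 2 lower at an unadjusted p of 0.05, and the 6 oligodendrocyte markers had 0 higher and 2 lower, where 9.45% of all genes tested were higher and 10.3% lower. Summed oligodendrocyte markers were 2172 and 2381 TPM in Ref, 1310 to 1760 TPM in Ctr and 1595 and 1129 TPM in Alt. Of the astrocyte markers only Slc1a2 was called, at 3484 to 4827 CPM in Ctr and 9528 and 5964 CPM in Alt. Of the other lists, oligodendrocyte precursor markers had 2 of 2 genes higher, microglia 1 higher and 1 lower of 5, endothelial and mural cells 1 higher of 6, and erythroid cells 1 lower of 5. The choroid plexus markers Ttr and Folr1 and the muscle markers Ckm and Mylpf did not pass the filter on low counts, and no tested marker of these 2 tissues passed. The part of these cell type differences in the results below was not tested, and in tissue a smaller share of a cell type cannot be told apart from less RNA of these genes per cell.

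Of the 50 genes, 46 passed the filter on low counts and were tested among 17254 genes. The remaining 4 were the muscle isoforms Cox7a1 and Cox8b, the testis isoform Cox8c and the second of the table's 2 rows named Atp5o, none of which had more than 4 counts in any library. The transcripts were abundant. TPM (the authors' values) is scaled by the deposited gene length, so that levels of different genes set side by side depend on that length. In Ctr, TPM summed to 493 ± 44.3 (SD, n = 3) for complex II and 1099 ± 86.5 for complex III. The sums were 2238 ± 295 for complex IV and 2348 ± 148 for complex V. The genes with the highest TPM in Ctr were Atp5a1 (666 TPM) and Atp5b (519 TPM), the catalytic α and β subunits of ATP synthase, followed by Cox6a1 (508 TPM) and Cox4i1 (410 TPM) of complex IV. Sdha (206 TPM), the flavoprotein of complex II, and Uqcrfs1 (219 TPM), the Rieske iron-sulfur protein, led their complexes.

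In Alt the same sums were 364 ± 65.8 TPM (SD, n = 2) for complex II, 592 ± 183 for complex III, 1192 ± 496 for complex IV and 1502 ± 329 for complex V. For complex III the 2 Alt libraries had 463 and 722 TPM, against 1186, 1013 and 1098 TPM in Ctr and 1192 and 968 TPM in Ref. For complex IV they had 842 and 1543 TPM, against 2507, 1923 and 2285 TPM in Ctr and 2488 and 1873 TPM in Ref. For complex V they had 1270 and 1735 TPM, against 2515, 2234 and 2296 TPM in Ctr and 2354 and 1934 TPM in Ref. Both Alt libraries thus lay below every Ctr and Ref library in each complex, complex II included (317 and 410 TPM against 427 to 543 TPM). In summed CPM this held for complexes III to V but not for complex II, where Alt replicate 2 (400 CPM) and Ctr replicate 3 (399 CPM) were level. Alt replicate 1 lay far below Alt replicate 2. Ref and Ctr overlapped in all 4 complexes.

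**Figure D1:**
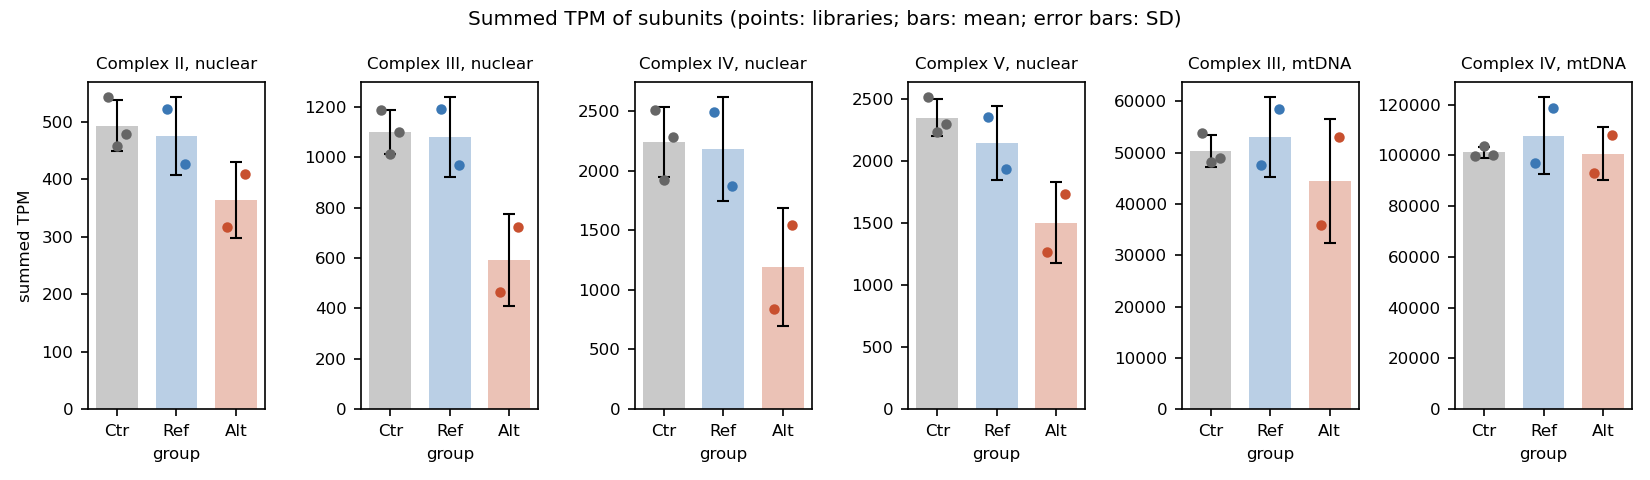
Summed TPM of the nuclear subunits of complexes II, III, IV and V and of the mtDNA-encoded subunits of complexes III and IV (vertical axes, each from 0) in Ctr (3 libraries), Ref (2) and Alt (2). Points are libraries, bars the group mean and error bars the SD. Both Alt points lie below all Ctr and Ref points in the 4 nuclear panels, and the groups overlap in both mtDNA panels.

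Against Ctr, 34 of the 46 genes tested were lower in Alt at an unadjusted p of 0.05 and 0 were higher (edgeR's quasi-likelihood test). By complex, the lower genes were 2 of 4 in complex II, 8 of 9 in complex III, 11 of 16 in complex IV and 13 of 17 in complex V. The background was large in this comparison, since 10.3% of all genes tested were lower and 9.45% higher at that threshold. The median log2 fold change of the 46 genes was -0.74 (0.598-fold), and that of all genes tested was -0.03. The median was -0.44 in complex II, -0.84 in complex III, -0.76 in complex IV and -0.80 in complex V. No gene here passed an adjusted p of 0.05, and 0 of all genes tested did (0% in either direction). The smallest adjusted p (Benjamini-Hochberg over all genes tested) among the 46 was 0.12. DESeq2, the tool the study used, called 20 of the 41 genes for which it gave an adjusted p as lower at 0.05, where 3.47% of its genes were. Without the low-count filter edgeR called 29 of 48 lower at an adjusted p of 0.05, where 2.86% of genes were. With the replicate number as a block, 29 of 46 were lower at an unadjusted p of 0.05, against 6.1% of all genes tested.

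The size of the difference rested on Alt replicate 1. Expressed as log2 CPM (counts scaled by library size with TMM factors) minus the mean log2 CPM of Ctr, Alt replicate 1 had a median of -1.25 over the 46 genes. The median of Alt replicate 2 was -0.34, and the 5 other libraries lay from -0.11 to 0.17. Alt replicate 1 was the lowest of the 7 libraries for 40 of the 46 genes, whereas 31.7% of all genes tested had their lowest value there. In Alt replicate 2, 42 of the 46 genes were below the Ctr mean (50% of all genes tested), and 44 were in Alt replicate 1 (52%). For 34 of the 46 genes both Alt libraries lay below all 3 Ctr libraries, a pattern held by 18.1% of all genes tested, and for 30 both lay below all 5 Ctr and Ref libraries, against 13.1% of all genes tested. Without Alt replicate 1 the count of lower genes was 15 of 46 (0 in complex II, 4 in complex III, 5 in complex IV and 6 in complex V), with a median log2 fold change of -0.35, and 4.46% of all genes tested were lower in that fit. The 15 genes were Uqcr10, Uqcr11, Uqcrb, Uqcrh, Cox4i1, Cox5a, Cox6b1, Cox6c, Cox7a2, Atp5g3, Atp5h, Atp5j, Atp5md, Atp5o and Atp5pb. Of the 34 lower genes, 25 came closer to 0 by over 1.5 times, and 1, Uqcrb, moved away from 0 by as much (-0.84 to -1.57). When Alt replicate 2 was left out instead, 39 of the 46 were lower at an unadjusted p of 0.05 (18.9% of all genes tested) and 37 at an adjusted p of 0.05 (10.8%). The lone Alt library is assumed in these fits to vary like the other groups.

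**Figure D2:**
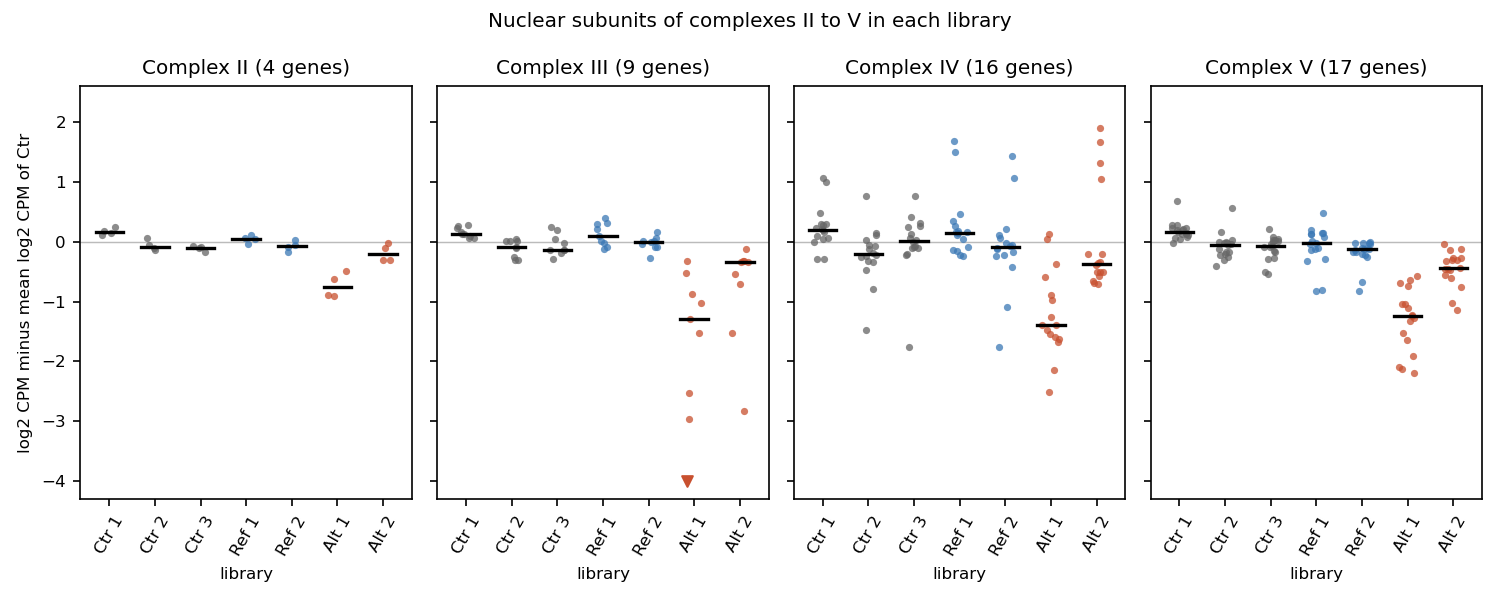
Log2 CPM minus the mean log2 CPM of the 3 Ctr libraries (vertical axis) for each gene tested (points) in each of the 7 libraries (horizontal axis), with 1 panel per complex; black bars are medians. The triangle at the bottom of the complex III panel is Uqcr11 in Alt replicate 1, which had 0 counts and lies beyond the axis. The medians span -0.75 to -1.39 in Alt replicate 1, against -0.20 to -0.44 in Alt replicate 2, while those of the Ctr and Ref libraries lie within 0.20 of the Ctr mean.

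Expression of nuclear respiratory genes is in part set by NRF1 and GABPA (also named NRF-2), whose binding letters sit near the start of many of them, and the promoter letters were therefore read beside the expression values. RefSeq windows of 300 bases (250 before the gene start and 50 of the gene, GRCm38.p6) were matched for 36 of the 50 genes. The NRF1 letters GCGCNTGCG were found on either strand in the windows of 15 of these 36 genes (41.7%), against 9.68% of 17491 protein-coding genes with a window. The GABPA letters CCGGAAG were found in 13 (36.1%, against 12.9%), the YY1 letters AAGATGG in 4 (11.1%, against 7.18%) and the CCAAT box, CCAAT, in 20 (55.6%, against 42.3%). A window with both NRF1 and GABPA letters was held by 7 of the 36 genes (19.4%, against 1.9% of all). These were Sdhd, Uqcr11, Cox6a1, Atp5h, Atp5k, Atp5l and Atp5md. A match is only a match of letters.

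The windows below show, for each complex, the gene with the smallest p for Alt versus Ctr among those with both motifs. All 4 are on the minus strand and are written 5′ to 3′ in the direction of the gene, and capitals mark every match to the 4 motifs on either strand. They lie at chr9:50603800-50604099 for Sdhd, chr10:80406772-80407071 for Uqcr11, chr5:115348909-115349208 for Cox6a1 and chr19:47090598-47090897 for Atp5md. The windows of Sdhd and Atp5md also overlap a neighboring gene (Timm8b and Pdcd11). No NRF1 match overlaps a GABPA match.
Sdhd: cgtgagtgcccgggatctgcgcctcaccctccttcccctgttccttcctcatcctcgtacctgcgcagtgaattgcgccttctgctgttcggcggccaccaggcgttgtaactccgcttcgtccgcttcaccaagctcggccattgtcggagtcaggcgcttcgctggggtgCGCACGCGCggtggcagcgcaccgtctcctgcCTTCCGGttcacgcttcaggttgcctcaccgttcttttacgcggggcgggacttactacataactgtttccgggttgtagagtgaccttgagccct
Uqcr11: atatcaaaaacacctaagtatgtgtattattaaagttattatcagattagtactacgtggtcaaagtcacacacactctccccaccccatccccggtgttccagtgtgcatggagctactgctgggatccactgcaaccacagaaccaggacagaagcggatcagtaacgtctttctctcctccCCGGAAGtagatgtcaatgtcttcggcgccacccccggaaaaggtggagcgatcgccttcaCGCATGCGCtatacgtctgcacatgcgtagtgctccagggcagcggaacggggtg
Cox6a1: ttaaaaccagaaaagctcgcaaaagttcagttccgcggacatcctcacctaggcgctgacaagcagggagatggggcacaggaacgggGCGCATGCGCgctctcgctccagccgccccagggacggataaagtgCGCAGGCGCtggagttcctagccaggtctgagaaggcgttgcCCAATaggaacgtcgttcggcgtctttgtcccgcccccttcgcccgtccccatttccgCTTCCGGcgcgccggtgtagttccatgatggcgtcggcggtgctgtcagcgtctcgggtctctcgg
Atp5md: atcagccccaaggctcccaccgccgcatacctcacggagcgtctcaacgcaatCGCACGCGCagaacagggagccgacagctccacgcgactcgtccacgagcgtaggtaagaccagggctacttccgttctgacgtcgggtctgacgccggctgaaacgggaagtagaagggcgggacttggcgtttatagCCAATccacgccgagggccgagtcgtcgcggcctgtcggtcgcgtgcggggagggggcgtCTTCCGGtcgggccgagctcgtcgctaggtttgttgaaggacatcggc
The Uqcr11 window has 1 NRF1 and 1 GABPA match, and the Sdhd window likewise. The Cox6a1 window has 3 NRF1 matches, of which 2 overlap each other in one run of capitals, and the Cox6a1 and Atp5md windows hold a CCAAT box as well.

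Complex II had the smallest median difference of the 4 complexes. Sdhc and Sdhd, which anchor the complex in the inner membrane and bind ubiquinone, were lower in Alt, whereas Sdha and Sdhb, the catalytic subunits, did not pass the test. Sdhd was at 35.4, 27.3 and 27.8 CPM in Ctr, 32.2 and 29 CPM in Ref, and 16 and 24.1 CPM in Alt. Both Alt libraries were below the other 5 (log2 fold change -0.59, SE 0.226, unadjusted p 0.0235). Sdhc had a log2 fold change of -0.57 (SE 0.201, unadjusted p 0.0149), from 48.7 to 59.1 CPM in Ctr to 29.6 and 44.4 CPM in Alt. Sdha was at 275, 238 and 233 CPM in Ctr, 257 and 233 CPM in Ref, and 161 and 243 CPM in Alt, so that only Alt replicate 1 stood apart (log2 fold change -0.30, unadjusted p 0.13). Sdhb, the iron-sulfur subunit, gave -0.29 (unadjusted p 0.115). Without Alt replicate 1 these log2 fold changes were -0.31 for Sdhc, -0.32 for Sdhd, -0.10 for Sdhb and -0.03 for Sdha, and none passed. Sdhd also lost its call without Ctr replicate 1 (-0.46), with a correction for gene length (-0.26) and with the replicate number as a block (-0.65).

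In complex III, the gene with the largest difference of all 46 was Uqcr11, which encodes the smallest subunit of the complex. It had 207, 140 and 191 counts in Ctr, 233 and 162 counts in Ref, and 0 and 20 counts in Alt. The 2 Alt libraries thus stood far below the other 5, and the 0 in Alt replicate 1 allows up to 0.195 CPM (3 counts; counting error only), where the Ctr libraries had 6.89 to 10.3 CPM. The fitted log2 fold change was -3.88 (SE 0.72, unadjusted p 0.000171, adjusted p 0.12), and it was -2.95 without Alt replicate 1. Its size depends on how the fit treats the 0.

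Uqcrh, the hinge protein that assists binding between cytochrome c1 and cytochrome c, was at 66.3, 53.5 and 51.6 CPM in Ctr, 60.9 and 59.2 CPM in Ref, and 19.6 and 34.6 CPM in Alt. Both Alt libraries were below all others (log2 fold change -1.07, SE 0.233, unadjusted p 0.000621). Uqcr10, a small subunit beside the Rieske protein, was at 25.2 to 34.5 CPM in Ctr and at 5.14 and 20.8 CPM in Alt, which gave -1.22 (SE 0.419, unadjusted p 0.0131). Alt replicate 1 was far below Alt replicate 2 there, the value was -0.55 without it, and with the groups coded as a numeric score the gene did not pass (-1.07). Uqcrq, a small subunit near cytochrome b, had the same uneven pair, with 3.32 and 20.9 CPM in Alt against 21.4 to 31.2 CPM in Ctr (-1.13, unadjusted p 0.0469, and -0.36 without Alt replicate 1). Uqcrb was the exception in this respect. It had 7.48 CPM in Alt replicate 1 and 3.18 CPM in Alt replicate 2, against 7.66 to 11.4 CPM in Ctr.

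The large subunits of complex III differed less. The redox subunits Cyc1 (cytochrome c1) and Uqcrfs1 had log2 fold changes of -0.73 (unadjusted p 0.00956) and -0.64 (unadjusted p 0.0103). Both were at -0.33 without Alt replicate 1 and neither passed, and Uqcrfs1 was likewise at -0.33 and did not pass with a correction for gene length. The core proteins differed in their calls, and the difference between them was not tested. Uqcrc1 was at 172, 159 and 143 CPM in Ctr, 159 and 148 CPM in Ref, and 85.8 and 125 CPM in Alt (-0.58, SE 0.181, unadjusted p 0.00744), and both Alt libraries were below all others. Its partner Uqcrc2 was the only gene of the complex that did not pass (-0.31, unadjusted p 0.0847), with 80.1 and 105 CPM in Alt against 104 to 123 CPM in Ctr. Without Alt replicate 1 the values were -0.34 for Uqcrc1 and -0.13 for Uqcrc2.

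In complex IV, the 11 lower genes were all of the widely expressed subunits measured: Cox4i1, Cox5a, Cox5b, Cox6a1, Cox6b1, Cox6c, Cox7a2, Cox7a2l, Cox7b, Cox7c and Cox8a. Cox5a, a matrix-facing subunit, was at 35, 25.1 and 30.6 CPM in Ctr, 33.6 and 28.4 CPM in Ref, and 11.4 and 18.4 CPM in Alt. Both Alt libraries lay below all Ctr and Ref libraries, which overlapped (log2 fold change -1.02, SE 0.249, unadjusted p 0.00153), and the value was -0.72 without Alt replicate 1. Cox6c, a membrane-spanning subunit, gave -1.04 (SE 0.278, unadjusted p 0.00292), from 54 to 75.6 CPM in Ctr to 19.3 and 41.3 CPM in Alt, and -0.59 without Alt replicate 1. Cox4i1, the subunit at which ATP and ADP regulate the enzyme, was at 209, 146 and 199 CPM in Ctr, 233 and 197 CPM in Ref, and 76.3 and 129 CPM in Alt (-0.85, SE 0.231, unadjusted p 0.00317, and -0.52 without Alt replicate 1). The Alt libraries of Cox7a2, one of the small membrane subunits, were closer to each other, with 28.1 and 36.9 CPM against 47.7 to 60.3 CPM in Ctr and 46.6 and 46.1 CPM in Ref (-0.69, unadjusted p 0.00314).

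In 2 other subunits of complex IV, Cox5b and Cox7b, Alt replicate 2 lay within the range of the Ctr libraries. Cox5b, the zinc-binding subunit, had the lowest log2 fold change of the complex (-1.35, SE 0.441, unadjusted p 0.0102), but its Ctr libraries spread from 11.4 to 27.3 CPM and included the 12.1 CPM of Alt replicate 2, while Alt replicate 1 was at 4.36 CPM. Without the latter it gave -0.80 and did not pass. Cox6b1, which links the 2 monomers of the enzyme on the side of cytochrome c, was at 46.8, 35.4 and 43.6 CPM in Ctr, 46.5 and 38.8 CPM in Ref, and 7.22 and 29.4 CPM in Alt (-1.19, SE 0.416, unadjusted p 0.0146). Both Alt libraries were below all others, and the value was -0.51 without Alt replicate 1. Cox6a1, the subunit with the highest TPM in the complex, was at 88.7 to 127 CPM in Ctr and at 34 and 80.6 CPM in Alt (-0.86, unadjusted p 0.0132), and it did not pass without Ctr replicate 1 (-0.69) or Alt replicate 1 (-0.37). Cox7b gave -0.70 (unadjusted p 0.0409), with 28.2 CPM in Alt replicate 2 and 25.6 CPM in Ctr replicate 2, and lost its call without Ctr replicate 1 (-0.66), Ctr replicate 3 (-0.57) or Alt replicate 1 (-0.23). Cox7a2l, a subunit-like protein, gave -0.53 (unadjusted p 0.0242), and did not pass without Ctr replicate 2 (-0.48) or Alt replicate 1 (-0.20).

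In complex V, the genes with the smallest p were of the stalks and the membrane part rather than the catalytic head. Atp5o, the subunit that confers oligomycin sensitivity and joins the head to the peripheral stalk, was at 33, 29.3 and 26.5 CPM in Ctr, 32.7 and 24.7 CPM in Ref, and 6.7 and 13.4 CPM in Alt. The Alt libraries were both below the lowest of the others (log2 fold change -1.55, SE 0.289, unadjusted p 0.000174, adjusted p 0.12), and the value was -1.14 without Alt replicate 1. Atp5h, subunit d of the peripheral stalk, was at 40.3 to 54.4 CPM in Ctr, 45.2 and 41.8 CPM in Ref, and 19.4 and 28.8 CPM in Alt (-1.03, SE 0.217, unadjusted p 0.000507). The other genes of the peripheral stalk, Atp5pb (subunit b) and Atp5j (coupling factor 6), gave -0.80 (unadjusted p 0.00368) and -0.90 (unadjusted p 0.00426). The 4 stalk genes were among the 15 that were lower without Alt replicate 1, where Atp5pb and Atp5j each gave -0.47.

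Atp5md, a small subunit of the membrane part that takes part in the joining of ATP synthase dimers, was at 54.3, 45.6 and 36.6 CPM in Ctr, 25.6 and 28.1 CPM in Ref, and 10.5 and 22 CPM in Alt. The 3 groups did not overlap, with Ref between the others (Alt versus Ctr -1.48, SE 0.293, unadjusted p 0.000291, adjusted p 0.12). Atp5mpl, another small membrane subunit, was also lower in both Ref and Alt, with 33.3, 50.4 and 23.4 CPM in Ctr, 19.3 and 19.2 CPM in Ref, and 14.4 and 23.1 CPM in Alt. The Atp5md row overlaps Taf5 on the other strand, and the strand setting of the counting is not given in the sources used here.

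The α and β subunits of the catalytic head had small differences. Atp5b, the β subunit, was at 698, 629 and 601 CPM in Ctr, 649 and 592 CPM in Ref, and 410 and 530 CPM in Alt (log2 fold change -0.45, SE 0.16, unadjusted p 0.0153), and did not pass without Ctr replicate 1 (-0.39) or Alt replicate 1 (-0.28). Atp5a1, the α subunit, was at 591 to 637 CPM in Ctr and at 411 and 591 CPM in Alt (-0.28, unadjusted p 0.119), so that Alt replicate 2 equaled the lowest Ctr library. The central stalk genes Atp5c1 (γ), Atp5d (δ) and Atp5e (ε) gave -0.63, -0.84 and -1.08, with unadjusted p of 0.00821, 0.0193 and 0.0152. They gave -0.31, -0.33 and -0.46 without Alt replicate 1, and none passed. Atp5e was at 23.1 to 29.1 CPM in Ctr and at 5.72 and 19.4 CPM in Alt. Of the membrane genes, Atp5l (subunit g) gave -0.70 (unadjusted p 0.0224, and -0.28 with no call without Alt replicate 1), and Atp5k (subunit e) and Atp5j2 (subunit f) did not pass (-0.74, unadjusted p 0.0626, and -0.55, unadjusted p 0.103). Atpif1, the protein that inhibits ATP hydrolysis by complex V and is no subunit by the rule used here, was at 23.4, 13 and 18.4 CPM in Ctr, 21.1 and 17.7 CPM in Ref, and 6.11 and 9.37 CPM in Alt. Both Alt libraries were below all others (-1.24, SE 0.298, unadjusted p 0.00139).

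**Figure D3:**
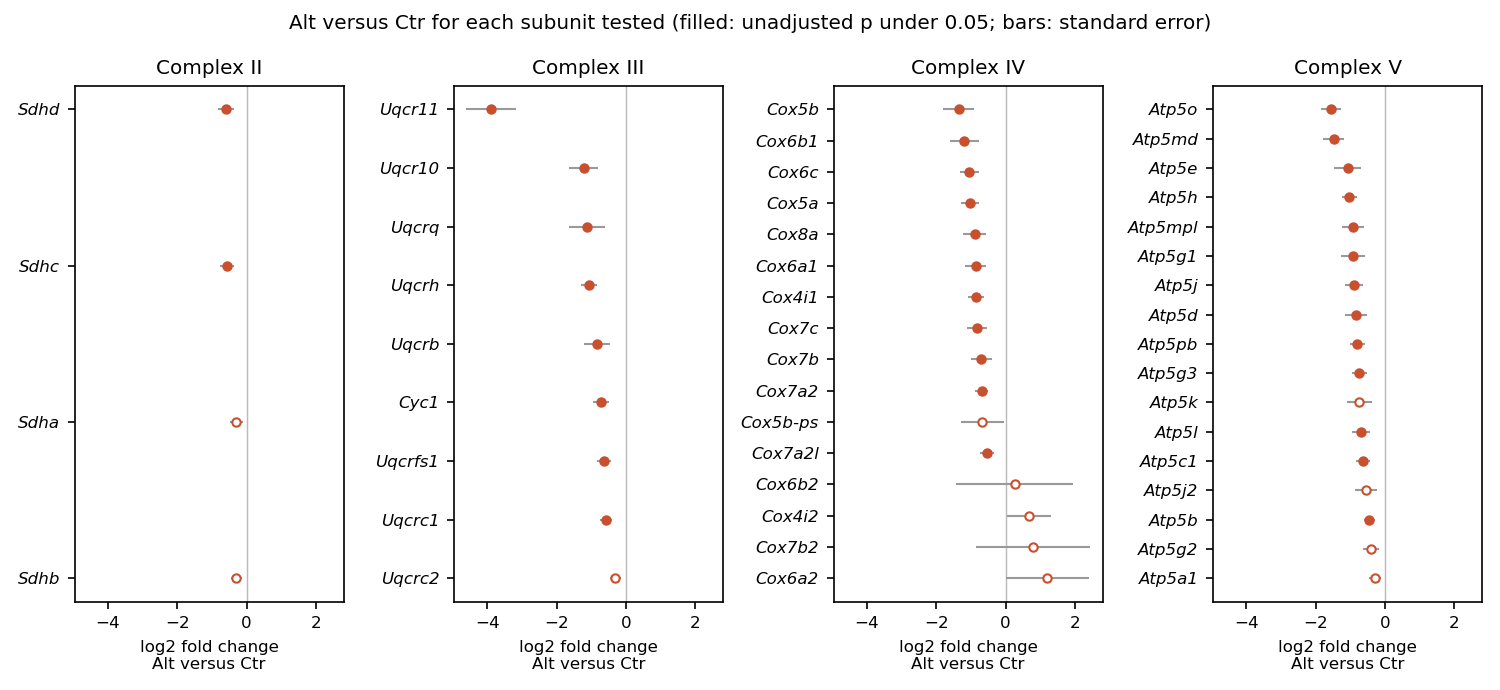
Log2 fold change of Alt versus Ctr (horizontal axis) for each gene tested (vertical axis, ordered within its complex), with bars for the standard error of the edgeR fit; filled points have an unadjusted p under 0.05. Of the 46 points, 42 lie below 0 and 34 are filled; the 4 points above 0 (Cox4i2, Cox6a2, Cox6b2 and Cox7b2) are open and have wide errors.

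The c subunit of complex V, whose ring carries protons through the membrane, is encoded by 3 genes for the same mature protein. Atp5g3 made up 56.7% to 59.7% of their summed TPM in Ctr, Atp5g2 28.9% to 31.1% and Atp5g1 11% to 12.3%. In Alt, Atp5g1 made up 6.35% in replicate 1 and 11.5% in replicate 2, and Atp5g2 37.3% and 34.7%, above its share in the 5 other libraries. Atp5g1 and Atp5g3 were lower in Alt (-0.92, unadjusted p 0.0234, and -0.74, unadjusted p 0.00392), and Atp5g2 did not pass (-0.41, unadjusted p 0.101). The call of Atp5g1 ended without Ctr replicate 1 (-0.84), Ctr replicate 3 (-0.91) or Alt replicate 1 (-0.33), and Atp5g3 gave -0.45 without the latter. The difference between the 3 genes was not tested. Their TPM shares depend on the deposited gene length, which was 4912 bases for Atp5g1 and 1675 bases for Atp5g2. In CPM, which is not scaled by length, the Ctr means were 33.6 for Atp5g1 and 30 for Atp5g2.

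Tissue isoforms of complex IV were rare in this tissue and none passed the test. Cox4i2, an oxygen-responsive isoform of subunit 4 that is abundant in lung, made up 0.972% to 1.75% of Cox4i TPM in Ctr and 3.56% and 4.09% in Alt. Its own values were 21, 27 and 34 counts in Ctr, 30 and 55 counts in Ref, and 22 and 50 counts in Alt, which overlapped between groups (log2 fold change 0.68, unadjusted p 0.303), while Cox4i1 was lower in Alt. Cox6a2, the heart and muscle isoform, had 7, 6 and 18 counts in Ctr, 30 and 3 counts in Ref, and 5 and 35 counts in Alt (1.20, SE 1.19, unadjusted p 0.333). Cox6b2 and Cox7b2, isoforms best known from testis, had at most 18 counts in any library and gave 0.26 (unadjusted p 0.878) and 0.80 (unadjusted p 0.635). Leaving out Alt replicate 2 turned the sign of Cox6a2 (-0.60), Cox7b2 (-0.46) and Cox6b2, whose remaining Alt library had 0 counts. Cox5b-ps had 17 and 19 counts in Alt and 32 to 39 counts in Ctr (-0.67, unadjusted p 0.304), and reads of such a near copy can be shared with Cox5b.

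The 2 alleles were carried by the same virus, so that Alt versus Ref compares the G with the C allele directly. It shares its Alt libraries with the comparison above. Here 29 of the 46 genes were lower in Alt at an unadjusted p of 0.05 and 0 were higher, where 8.83% of all genes tested were lower and 6.71% higher. By complex the lower genes were 2 of 4, 7 of 9, 9 of 16 and 11 of 17. The median log2 fold change was -0.72 over the 46 genes and -0.04 over all genes tested. No gene of the 46 passed an adjusted p of 0.05 (smallest 0.229), and 1 of all genes tested did (0.0058%), the oligodendrocyte marker Mbp (-1.29, adjusted p 0.0481). Oligodendrocyte markers moved with this comparison, with 5 of 6 lower in Alt than in Ref (median -0.92), while the neuronal markers had 1 of 8 higher and 1 lower. The part of these cells in the values was not tested. Uqcr11 (-4.06, unadjusted p 0.000159), Atp5o (-1.51, unadjusted p 0.000364), Uqcrh (-1.15, unadjusted p 0.000642), Cox4i1 (-1.07, unadjusted p 0.0011) and Cox5a (-1.05, unadjusted p 0.00197) had values close to those against Ctr. The 5 genes that were lower against Ctr and not against Ref were Atp5l, Atp5mpl, Cox7a2l, Cox7c and Uqcrfs1. Without Alt replicate 1 the count was 11, where 4.4% of all genes tested were lower, and without Ref replicate 1 it was 14, where 2.88% were. When Alt replicate 2 was left out it was 38 (17.3% of all genes tested), of which 35 passed an adjusted p of 0.05 (8.96%). With the 2 groups alone in the fit it was 19 (6.33%). At an adjusted p of 0.05, DESeq2 called 8 genes (1.66% of its genes were lower) and edgeR without the low-count filter 20 (2.01%).

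Ref and Ctr did not separate in most of these genes. At an unadjusted p of 0.05, 2 of the 46 genes were lower in Ref and 0 were higher, against 0.945% and 2.19% of all genes tested. No gene passed an adjusted p of 0.05 (0%), among these 46 or all genes tested. Of the oligodendrocyte markers 5 of 6 were higher in Ref than in Ctr (median 0.78), and 2 of 6 astrocyte markers were higher. The median log2 fold change of the 46 genes was -0.01, and both Ref libraries lay below all 3 Ctr libraries for 8 of the 46 genes, against 10.5% of all genes tested. The 2 lower genes were Atp5md (-0.76, unadjusted p 0.0194) and Atp5mpl (-0.89, unadjusted p 0.0138), both of the membrane part of complex V. In Atp5mpl the Alt and Ref libraries overlapped (Alt versus Ref -0.03, unadjusted p 0.92), whereas Atp5md was lower in Alt than in Ref (-0.72, unadjusted p 0.038). Leaving out Ctr replicate 1 or Ctr replicate 2 left 1 of the 2 calls, and leaving out Ref replicate 1 left 0. With the replicate block and a correction for gene length together, 5 genes were lower, where 3.65% of all genes tested were.

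The mtDNA-encoded partners of these proteins did not pass the test against Ctr in any of 6 genes, and their median log2 fold change was -0.01. When Alt replicate 1 was left out, 1 of the 6, mt-Atp6, was higher at an unadjusted p of 0.05, where 3.68% of all genes tested were, and the median was 0.23. mt-Cytb, the cytochrome b of complex III, was at 18332, 16451 and 15704 CPM in Ctr, 15336 and 21690 CPM in Ref, and 11825 and 19490 CPM in Alt (log2 fold change -0.10, unadjusted p 0.633). mt-Co1, the catalytic subunit of complex IV, was at 41515 to 45856 CPM in Ctr and at 40922 and 52298 CPM in Alt (0.08, unadjusted p 0.65). In both genes the Alt libraries lay on either side of the Ctr libraries. mt-Co2 and mt-Co3 were counted at far lower levels and gave -0.75 (unadjusted p 0.0888) and -1.10 (unadjusted p 0.0681). mt-Atp6 was at 662 and 711 CPM in Ref, above Alt (240 and 445 CPM, unadjusted p 0.0132) and above Ctr (194 to 429 CPM, log2 fold change 1.25, unadjusted p 0.00157). mt-Atp8, which overlaps mt-Atp6 on the mitochondrial genome, was at or below 1.55 CPM in every library.

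Relative to the mtDNA-encoded TPM of the complex, the nuclear subunits of complex III were at 2.18% ± 0.0666 in the 3 Ctr libraries (mean ± SD). They were at 2.08% ± 0.601 in the 2 Ref libraries and 1.33% ± 0.0495 in the 2 Alt libraries. For complex IV the ratios were 2.21% ± 0.335 in Ctr, 2.07% ± 0.693 in Ref and 1.17% ± 0.373 in Alt. By library, complex III had 1.29% and 1.36% in Alt, 1.65% and 2.5% in Ref and 2.11% to 2.24% in Ctr. The 2 Alt libraries were close to each other in this ratio for complex III. They were less so for complex IV (0.903% and 1.43%), where the lowest library of the others had 1.58%. Complex V did not follow this order. Its nuclear subunits were at 259%, 105% and 180% of the TPM of mt-Atp6 and mt-Atp8 in Ctr, 67.9% and 59.6% in Ref, and 102% and 84.5% in Alt, so that Ref was lowest, beside its higher mt-Atp6. These are ratios of transcripts, not of proteins.

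Most of these subunits are small proteins with short transcripts. The median gene length in the deposited table was 1631 bases for the 46 genes and 4051 bases for all genes tested, and the median coding length (longest coding sequence in GENCODE M21, GRCm38) was 387 bases against 1425 bases. Across all genes tested, the log2 fold change of Alt versus Ctr went with gene length (Spearman's rho 0.333, across genes, which are not independent). Per library, the rho between gene length and the difference from the Ctr mean was 0.341 in Alt replicate 1, 0.208 in Alt replicate 2 and -0.212 to 0.121 in the others. With coding length, the rho was 0.425 over all genes tested that have one. Over the 46 genes described here the rho was 0.487 with coding length and 0.0823 with gene length, and over the 41 of them with at least 100 counts in every Ctr library it was 0.619 and 0.358. The 20 genes with the shorter coding sequences (156 to 387 bases) had a median log2 fold change of -0.91, and the 21 with the longer ones (402 to 1992 bases) of -0.63. Of the 20 shorter genes 18 were lower in Alt at an unadjusted p of 0.05, and of the 21 longer genes 16. Among all genes tested with a coding length in the same ranges, 36.7% of 615 (median -0.61) and 14.4% of 9289 (median -0.15) were lower. In Alt replicate 2 alone, the medians of the shorter and the longer genes were -0.50 and -0.31.

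After a correction for gene length within each library, 28 of the 46 genes were lower in Alt than in Ctr at an unadjusted p of 0.05, with a median log2 fold change of -0.49, where 9.06% of all genes tested were lower. The rho across all genes was 0.0265 after this correction. By complex the lower genes were 1 of 4, 6 of 9, 9 of 16 and 12 of 17. The 6 genes whose calls ended were Sdhd, Uqcrb, Uqcrfs1, Cox7a2l, Cox7b and Atp5mpl. For Alt versus Ref the corrected count was 17, where 5.6% of all genes tested were lower, and with the replicate block as well it was 17, where 3.95% were. The part of transcript length or RNA quality in the remaining differences was not tested.

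**Figure D4:**
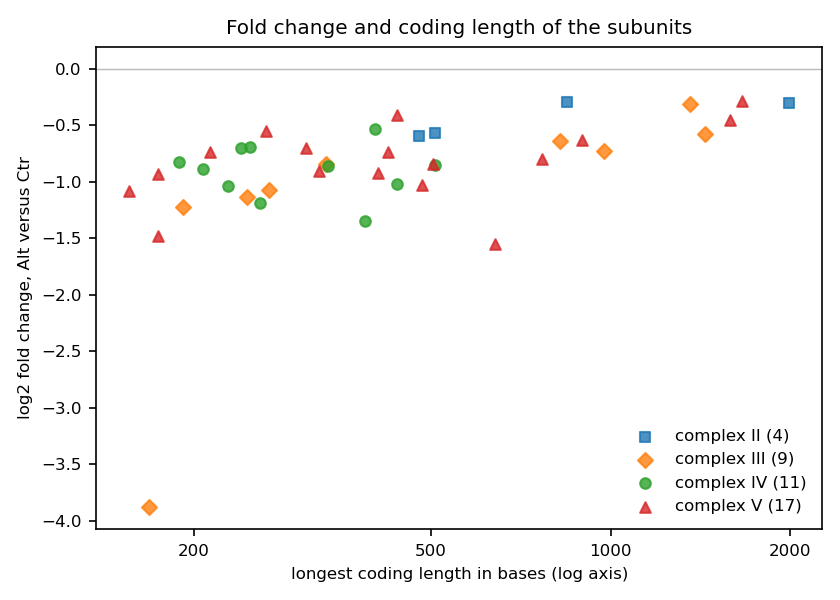
Log2 fold change of Alt versus Ctr (vertical axis) against the longest coding length in bases (horizontal axis, log scale) for the 41 genes with at least 100 counts in every Ctr library, with 1 marker shape per complex. Points lie lower at the short end, where Uqcr11 is the lowest at -3.88, and the genes of 1359 bases and more lie between -0.28 and -0.58.

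Other gene groups of the mitochondrion were taken from lists. Complex I subunits had 25 of 38 genes lower and 0 higher in Alt than in Ctr at an unadjusted p of 0.05, against 10.3% lower and 9.45% higher of all genes tested (median log2 fold change -0.82), led by Ndufa3 (-2.57, unadjusted p 0.000338). Mitochondrial ribosomal proteins had 30 of 77 lower and 0 higher (median -0.64). Cytosolic ribosomal proteins, which are no part of the mitochondrion, had 56 of 80 lower and 0 higher (median -0.67). Carriers of adenine nucleotides and phosphate and the outer membrane channels had 5 of 6 lower (median -0.54), among them Slc25a4, Slc25a5 and Slc25a3, which bring ADP and phosphate to ATP synthase. Without Alt replicate 1 these counts were 11 of 38, 9 of 77, 14 of 80 and 0 of 6, against 4.46% of all genes tested, and the medians were -0.42, -0.38, -0.34 and -0.31. The lower values were thus found in cytosolic ribosomal genes as well as in respiratory genes.

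Further lists hold genes that serve the complexes, read against the same 10.3% lower and 9.45% higher. Of 37 assembly factors for complexes II to V, 8 were lower and 0 higher (median -0.20), including Coa3 (-1.10, unadjusted p 0.000423) and Surf1 (-1.04, unadjusted p 0.000515), both needed to build complex IV. Coa3 was at 27.5 to 30.3 CPM in Ctr and at 12.3 and 14.4 CPM in Alt, so that its 2 Alt libraries were alike. The count was again 8, of 38 tested, without Alt replicate 1, against 4.46% of all genes tested. Of 19 genes for electron carriers and coenzyme Q synthesis 3 were lower and 1 higher (median -0.40). The lower ones included Cycs, cytochrome c, at 32.5 to 51.4 CPM in Ctr and 19.2 and 31.5 CPM in Alt (-0.66, unadjusted p 0.0242). Of 18 genes of the TCA cycle and pyruvate dehydrogenase 5 were lower and 0 higher (median -0.31), led by Mdh2 (-0.83, unadjusted p 0.00321). Mdh2 was at 168 to 210 CPM in Ctr, 75.4 CPM in Alt replicate 1 and 137 CPM in Alt replicate 2. These last 2 lists had 1 gene lower each when Alt replicate 1 was left out, with medians of -0.13 and -0.14.

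The 15 regulators of nuclear respiratory genes included 2 that were higher in Alt and 1 that was lower, compared with Ctr (median 0.22), near the 9.45% and 10.3% of all genes tested. Nrf1 was at 13.6, 14.1 and 10.1 CPM in Ctr, 16.5 and 13.5 CPM in Ref, and 11.4 and 13.1 CPM in Alt (-0.04, unadjusted p 0.876). Gabpa, which encodes the DNA-binding subunit of the factor whose letters are shown in the windows above, was at 29.1 to 34.9 CPM in Ctr and at 38.5 and 36.9 CPM in Alt (0.22, unadjusted p 0.245). Ppargc1a, the coactivator PGC-1α, was at 48.1 to 62 CPM in Ctr and at 70.1 and 67.7 CPM in Alt, both above all other libraries (0.38, unadjusted p 0.0553). The higher ones were Creb1 (0.47, unadjusted p 0.0219) and Sp1 (0.54, unadjusted p 0.0281), and the lower one was Tfb2m (-0.79, unadjusted p 0.00963), a factor for transcription of mtDNA. Gene lengths were 13742 bases for Creb1, 8262 for Sp1 and 2804 for Tfb2m, against a median of 4051 for all genes tested. Over all genes tested the log2 fold change went with gene length (rho 0.333), and the part of length in these values was not tested. When Alt replicate 1 was left out, none of the 15 passed.

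**Figure D5:**
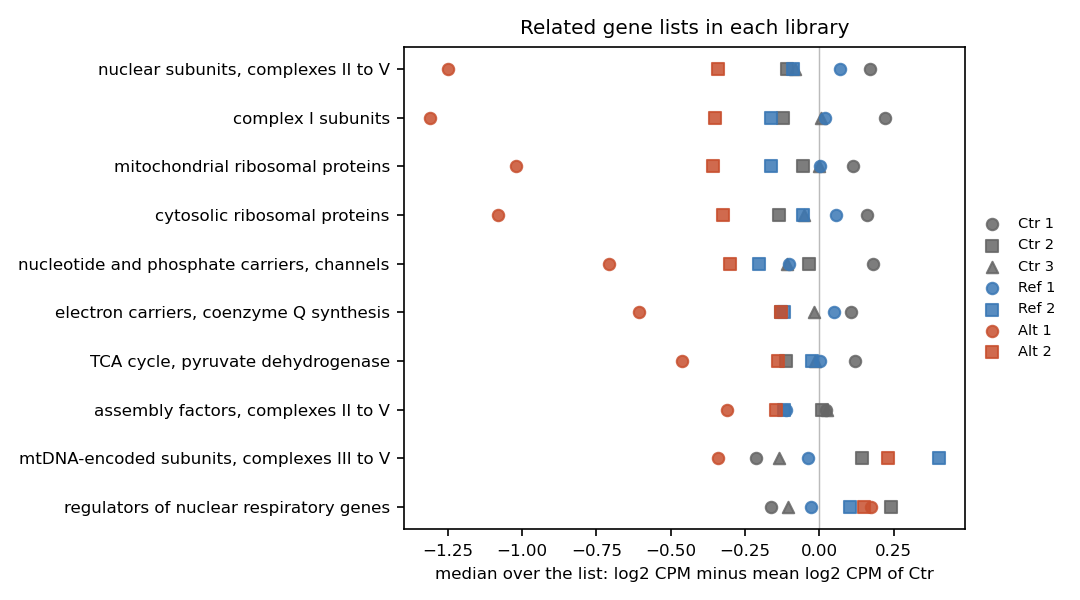
Median over each gene list of log2 CPM minus the mean log2 CPM of Ctr (horizontal axis), for 10 lists (vertical axis) in each of the 7 libraries (color for the group, marker shape for the replicate). Alt replicate 1 is at -1.25 for the nuclear subunits of complexes II to V, -1.31 for complex I, -1.02 for mitochondrial and -1.08 for cytosolic ribosomal proteins, and lies among the other libraries for the regulators.

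Overlap with other genes limits some of these values. By their spans in the table, Atp5j overlaps Gabpa, Cox4i1 Emc8, Cox6c Vps13b, Atp5d Cbarp, Atp5pb Wdr77, Uqcrb Gm10767 and Atp5a1 Haus1, each on the opposite strand. Atp5o overlaps the second row named Atp5o, which had 0 counts, on the same strand. The share of reads that the counting could assign to the partner, or leave out as shared, was not measured.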

How the data were processed

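PFC tissue RNA was extracted with TRIzol, selected for poly(A) and sequenced as 3 Ctr, 2 Ref and 2 Alt libraries, grouped by their labels. The authors deposited 1 table with counts of reads per gene, which were not normalized, beside TPM, FPKM and gene length. From the counts and lengths, the deposited TPM and FPKM values were recomputed within a relative difference of 4.3e-07. The submitters' processing notes name STAR, featureCounts and hg19, which is a human build, although the table holds mouse Ensembl genes. The build of the table's coordinates, the annotation and the strand setting are not given in the sources used here, so coordinates are printed for RefSeq windows (GRCm38.p6) alone. FPKM was not used.

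Counts of all 7 libraries were fitted in 1 group-means model with edgeR 4.0.16 (R 4.3.3, TMM, filterByExpr by group, glmQLFit, glmQLFTest), with Benjamini-Hochberg adjustment over every gene tested. The standard error is the log2 fold change divided by the square root of F. Log2 CPM used a prior count of 2. A count of 0 was given an upper limit of 3 counts. The scripts were tested on simulated data. Depth was 16655697 to 20750857 counts per library, and limits cover counting error only.

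Alternatives were DESeq2 1.42.0, its size factors, no low-count filter, loess offsets for gene length (span 0.3), the replicate number as a block, robust fitting, fewer libraries in the fit, a numeric score for the order of the groups, protein-coding genes only, and each library left out. Named genes are, per complex, the 2 with the highest TPM, the 3 with the smallest p and the 1 with the largest p for Alt versus Ctr, every isoform family, the complex V inhibitor and the mtDNA-encoded subunits, and up to 3 of each other list. Other genes of the 46, the regulators Nrf1, Gabpa and Ppargc1a and the markers were named after their values were seen. The genes and lists were chosen with earlier results of these data known.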

Additional observations from a re-analysis of the deposited data

How the results depend on the processing

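Of 1062 values under alternatives, 862 were of single genes, and 750 of these kept their direction and their side of the threshold. Of the rest, 103 lost their call, 5 gained one and 4 reversed. The other 200 values were counts or medians, of which 20 were classed as moved and 180 as the same. The latter could still shift. The median for Alt versus Ctr went from -0.74 to -0.49 with the gene length correction. That for Ref versus Ctr went from -0.01 to 0.07 without Ctr replicate 1. For single genes, 69 of 320 such values lost the call for Alt versus Ref and 32 of 526 for Alt versus Ctr. For Alt versus Ctr, no alternative gave a gene of the 46 that was higher at an unadjusted p of 0.05, and 28 to 36 were lower under every alternative other than leaving out 1 library. Genes past an adjusted p of 0.05 numbered 0, but 20 with DESeq2 and 29 with no low-count filter, and 0 to 37 when a library was left out, with 37 without Alt replicate 2, where 10.8% of all genes tested were lower at that threshold. The count of lower genes was 15 to 39 when a library was left out, with 15 without Alt replicate 1, and the median log2 fold change was -1.28 to -0.35, set by the 2 Alt libraries.

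For Alt versus Ref, 8 genes passed an adjusted p of 0.05 with DESeq2 (1.66% of all genes were lower there) and 20 with no low-count filter (2.01%), and 0 to 35 did when a library was left out, with 35 without Alt replicate 2 (8.96%). The lower genes numbered 17 with the gene length correction, 17 with the replicate block and that correction together (3.95% of all genes), 19 with the 2 groups alone (6.33%), and 11 to 38 when a library was left out. The median log2 fold change was then -1.19 to -0.31. For Ref versus Ctr, 5 genes were lower with the replicate block and the length correction (3.65% of all genes), and 0 to 2 when a library was left out. The cause of these shifts was not tested, beyond the samples each fit lacks.

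Among single genes, 3 with few counts reversed. With 1 library left out, Cox7b2 ranged from -0.46 to 1.46 and Cox6a2 from -0.60 to 1.97, with the low values without Alt replicate 2. Cox6b2 ranged from -5.38 to 1.22 and was at -0.30 without Ctr replicate 2. The -5.38, without Alt replicate 2, is a fitted value against 0 counts and is no measure of size. Same-numbered libraries had correlations of -0.0984 to 0.0702 between their deviations from the group means. In a group of 2 libraries these deviations mirror each other. The values therefore cannot decide whether replicate numbers pair the libraries. With the replicate block 29 genes were lower in Alt than in Ctr (median -0.80), against 6.1% of all genes. Precision is limited by the 2 Alt and 2 Ref libraries, and Alt replicate 1 has the fewest counts.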
